A study of Homo sapiens with 8 samples.

Results

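Sense intronic and sense overlapping lncRNAs are long noncoding RNA genes that lie within, or across, a longer gene transcribed from the same strand. Their symbols are built from that longer gene, the host, followed by -IT (intronic transcript) or -OT (overlapping transcript) and a number. GENCODE release 44 on hg38 holds 144 such genes, 128 named -IT and 16 named -OT. A gene was taken as a member when the short-read table had a row for it, by its ENSG identifier or by an assembled StringTie locus (an MSTRG row) on the same strand with a span overlap (Jaccard index, shared bases over joined bases) of at least 0.5, and when that row was above 0 in at least 3 short-read libraries. By this rule 123 of the 144 genes had a row and 82 were members, out of 62727 rows in the table. The other 21 genes lay inside a longer assembled row, in most cases that of their host. In 4 of the 82 the row also held another gene (MUC20-OT1, ST7-OT4, C21orf91-OT1 and the KBTBD11-OT1 gene that spans CLN8 and ARHGEF10). The values below are those of the other 78, 73 named -IT and 5 named -OT, whose row was their own.

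The RNA came from HAP1, an established near-haploid line that descends from the human leukemia line KBM-7, with no treatment and no change of genotype between libraries. Nuclei were split with a urea and detergent buffer into the soluble nucleoplasm and the chromatin pellet, and ERCC spike-in RNA was added at this step. Short-read libraries (50 bp reads) were made from 3 chromatin and 3 nucleoplasm preparations, and nanopore long-read cDNA libraries from 2 chromatin preparations, so that RNA bound to chromatin (cheRNA, chromatin-enriched RNA) could be told from released RNA. Per the study's methods the short-read libraries came from 3 separate cultures, so that p-values measure the spread between cultures of this line.

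RNA polymerase II transcribes the introns of a gene along with its exons, and introns are usually removed and degraded in the nucleus while the spliced mRNA is released for export. A sense intronic lncRNA therefore shares its strand and its position with host pre-mRNA. Short reads that come from such a lncRNA and reads from the unspliced host intron around it cannot be told apart in the deposited gene table, and every value below is the level of the annotated or assembled locus.

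The libraries held 38895027 to 43804918 reads in chromatin and 75737601 to 79523938 in nucleoplasm. GEO's fraction label reads chromatin for all 8 libraries, so the groups were taken from the sample titles. MALAT1, a nuclear lncRNA, was higher in the libraries titled chromatin (log2 fold change 3.09 ± 0.08, SE, n = 3 per fraction), and the mRNA of GAPDH was lower there (-2.35 ± 0.08). BCR and ABL1, whose fusion marks the parental leukemia, were both detected, at means of 739 and 925 normalized counts in chromatin. Of 5 blood lineage markers, PTPRC, SPI1 and GATA1 were at 0 in all 6 libraries, and CD33 and CD34 stayed at or below 4.39 normalized counts. Among 4 genes of other cell types, ALB and CD3E were at 0 and COL3A1 at or below 0.88. COL1A1 had means of 470 in chromatin and 794 in nucleoplasm. The 9 mitochondrially encoded mRNAs with a row, which mark RNA from outside the nucleus, summed to 74350 to 84684 in chromatin. In nucleoplasm they summed to 223142 to 260881, and what this does to the ratios was not tested.

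The annotated ends of the members are shown first, because the rest of the values depend on where these loci begin and end. The lines below give the last 40 bases of the annotated gene and the 20 genomic bases past its end, from the hg38 sequence and 5′ to 3′ on the gene's own strand. Capitals mark the polyadenylation signal AATAAA or ATTAAA in the last 40 bases and every A in the 20 bases past the end. The first line has A-rich sequence past the end, TTLL7-IT1 and AGAP1-IT1 carry a signal, and the last pair has neither.
THRB-IT1 (chr3:24455116-24455175, minus strand): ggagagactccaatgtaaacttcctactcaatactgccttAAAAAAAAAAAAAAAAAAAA
TTLL7-IT1 (chr1:83979098-83979157, minus strand): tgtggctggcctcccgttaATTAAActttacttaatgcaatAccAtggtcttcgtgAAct
AGAP1-IT1 (chr2:235507527-235507586, plus strand): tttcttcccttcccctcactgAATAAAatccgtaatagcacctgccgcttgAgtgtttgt
FOXP1-IT1 (chr3:71570235-71570294, minus strand): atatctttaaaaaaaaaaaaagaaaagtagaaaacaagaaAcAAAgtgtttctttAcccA
N4BP2L2-IT2 (chr13:32504486-32504545, minus strand): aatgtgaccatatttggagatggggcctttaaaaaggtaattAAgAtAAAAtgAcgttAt

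At least 12 of the 20 bases past the end were A in 10 of the 78 members (12.8%), against 3.60% of 18718 other annotated lncRNA genes and 1.47% of 20028 protein-coding genes. THRB-IT1 ended directly before 20 A's. AATAAA or ATTAAA, searched on the gene's strand only, stood in the last 40 bases of 23 members (29.5%), against 45.8% of the other lncRNA genes and 70.2% of the protein-coding genes. These are counts of letters in a window and say nothing of whether RNA is cleaved there.

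The start windows of members also differed from those of their hosts. The lines below run from 250 bases before the annotated start to 50 bases after it, on the gene's own strand, with CG and TATAAA in capitals. ACAP2-IT1 is among the members with the largest fold changes and stands for the CG-poor starts, and FAR1-IT1 stands for the few CG-rich ones.
ACAP2-IT1 (chr3:195282692-195282991, minus strand): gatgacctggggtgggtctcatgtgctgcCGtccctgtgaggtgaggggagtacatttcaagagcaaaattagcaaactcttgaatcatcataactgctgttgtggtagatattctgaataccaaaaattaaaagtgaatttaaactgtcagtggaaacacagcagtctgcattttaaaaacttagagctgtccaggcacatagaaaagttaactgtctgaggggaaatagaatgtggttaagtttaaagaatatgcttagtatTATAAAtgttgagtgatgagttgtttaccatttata
FAR1-IT1 (chr11:13669077-13669376, plus strand): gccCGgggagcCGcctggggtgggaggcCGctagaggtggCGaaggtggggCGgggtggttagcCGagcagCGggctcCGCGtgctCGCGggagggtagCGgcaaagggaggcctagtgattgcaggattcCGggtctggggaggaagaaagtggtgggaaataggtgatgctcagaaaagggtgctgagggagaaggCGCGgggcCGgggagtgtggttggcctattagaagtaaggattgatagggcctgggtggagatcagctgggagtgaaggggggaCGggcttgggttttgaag

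A CG-rich start (GC above 50% and an observed to expected CG ratio above 0.6) was found in 5 of 78 members (6.41%), namely FAR1-IT1, KCNH1-IT1, MAPT-IT1, FGF14-IT1 and SPANXA2-OT1. It was found in 51 of 76 host genes (67.1%), in 21.1% of the other lncRNA genes and in 55.0% of protein-coding genes. The median GC content of the start window was 43.5% for members and 65.0% for hosts, whereas the exons of members and hosts had similar medians, 44.5% and 45.2%. TATAAA, searched on the gene's strand, occurred in 7 member windows (8.97%), close to the 9.19% of other lncRNA genes. It was counted anywhere in the window, and in ACAP2-IT1 it stands past the annotated start.

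Members were short against the introns that held them. Their median span was 1940.5 bases and their median exonic length 599.5 bases, and 67 of 78 had more than 1 annotated exon. All hosts were protein-coding. In 71 members the whole gene lay inside the host on its strand without touching a host exon, 3 were inside but shared exon bases (CDC42-IT1, TGFB2-OT1 and FGF14-IT1), and 3 reached past the host (ANXA2R-OT1, KBTBD11-OT1 and SPANXA2-OT1). WARS2-IT1 was annotated on the strand opposite to WARS2. Against the canonical host transcript 66 members fell within a single intron, 24 of them in intron 1, and the median length of that intron was 56945 bases. Only 10 of the 66 came within 1000 bases of an end of the intron.

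The short-read comparison asked in which fraction each member was found. Of the 78 members 76 had the higher mean in chromatin, and in 73 the lowest chromatin library was above the highest nucleoplasm library, whereas all chromatin libraries lay above all nucleoplasm libraries in 46.2% of the 34476 genes above 0 in at least 3 libraries. No member had its nucleoplasm libraries all above its chromatin libraries, a pattern seen in 37.5% of those genes. The 9 members at 0 in all nucleoplasm libraries passed the rule through chromatin alone. Their order was thus set in advance and carries no weight. The chromatin libraries gave 14374 reads over the 78 members and the deeper nucleoplasm libraries gave 1887. Of the 119 rows that belonged to a single -IT or -OT gene, with no minimum on their level, 81 had the higher mean in chromatin, 2 in nucleoplasm and 36 were at 0 in every library. Over all 39357 genes above 0, 58.0% had the higher mean in chromatin.

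The rule's own limit was reached by genes at a few reads. Of the 119 rows 3 were above 0 in 1 library and 2 in 2 libraries, and PLCB1-IT1 was the highest of these, with 8.41 normalized counts in chromatin replicate 2 and 0 elsewhere. Of the 10 rows above 0 in exactly 3 libraries, ITPKB-IT1 was the highest, with 19.8, 27.6 and 23.1 in chromatin and 0 in nucleoplasm, and WARS2-IT1 the lowest by its mean, with 1.16, 1.20 and 2.20. By span overlap, the lowest own-row match was AGAP1-IT1 at 0.90, and 84 of the 90 MSTRG matches rounded to 1.00.

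A test was possible for 46 of the 78 members, those that reached 10 normalized counts in 3 or more libraries. limma on log2(normalized count + 1), with Benjamini-Hochberg adjustment over 26066 genes, called 41 of the 46 higher in chromatin (adjusted p under 0.05 and more than 4-fold), against 21.2% of all genes tested, and none higher in nucleoplasm, against 8.47%. No member was lower in chromatin at an unadjusted p under 0.05 in limma, and edgeR and DESeq2 on the recovered reads also called none in nucleoplasm. The log2 fold changes ran from 0.64 to 5.21 with a median of 3.58, beside -0.02 over all genes tested. However, 35 of the 46 reached the minimum through the chromatin libraries alone, so that their count and the median carry no weight as support. A minimum of 10 on the mean of all 6 libraries left 42 members, of which 37 were called in chromatin, against 20.4% of 25568 genes. In 33 of these 42 the nucleoplasm mean was itself under 10, so this minimum too was reached through chromatin and the count carries no more weight. Of the 7 members with 10 or more normalized counts in all 3 nucleoplasm libraries 4 were called (FOXP1-IT1, N4BP2L2-IT2, ZNF346-IT1 and SPANXA2-OT1), against 10.9% of 21834 genes.

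The values rest on equal scaling of the fractions by median ratios. Scaled to the same ERCC total, the median of all genes moved from -0.02 to -1.33, 30 of 46 members were called in chromatin, against 11.9% of all genes tested, and 44 of 46 had a positive log2 fold change.

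N4BP2L2-IT2 (chr13:32504506-32509395, minus strand), a single-exon locus within N4BP2L2, had the highest mean normalized count of the members. Its 3 chromatin libraries held 2047, 2362 and 1935 normalized counts and its 3 nucleoplasm libraries 101, 92.1 and 88.7. The groups stood far apart, with a log2 fold change of 4.48 ± 0.09 (limma, SE, adjusted p 8.67e-09). FOXP1-IT1 (chr3:71570255-71574457, minus strand) lies in intron 2 of FOXP1, a forkhead transcription factor gene. It came next in chromatin, with 635, 896 and 598 normalized counts against 31.6, 31.0 and 20.3, a log2 fold change of 4.64 ± 0.21 (adjusted p 8.26e-08). In each chromatin library N4BP2L2-IT2 and FOXP1-IT1 together gave more than the rest of the members. The 78 members summed to 5239, 6459 and 4938 normalized counts in chromatin, and to 2556, 3201 and 2404 without these loci. In nucleoplasm the sums were 577, 563 and 487, and 444, 440 and 378 without them. The difference between fractions in the summed level was therefore smaller without them, but no library of either fraction crossed into the other.

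TTLL7-IT1 (chr1:83979118-83984300, minus strand) had the largest log2 fold change. It sits in intron 1 of TTLL7, which encodes a tubulin polyglutamylase, and held 136, 178 and 145 normalized counts in chromatin against 3.51, 2.58 and 3.38 in nucleoplasm. All chromatin libraries were well above all nucleoplasm libraries (5.21 ± 0.19, adjusted p 2.96e-08). RC3H1-IT1 (chr1:174009267-174016206, minus strand) is in intron 1 of RC3H1, the gene of the RNA-binding ubiquitin ligase roquin-1. It had 64.1, 67.3 and 56.0 in chromatin and 0.88, 1.72 and 0 in nucleoplasm, where the 3 libraries together gave 3 reads. The ratio of fractions was 72.3 (exact 95% counting interval 24.3 to 354). CDC42-IT1 (chr1:22059197-22064199, plus strand), in the gene of the small GTPase CDC42, rested on 2 nucleoplasm reads against 45.4, 50.4 and 29.6 normalized counts in chromatin, also a ratio of 72.3 (interval 19.5 to 605). It shares 38 bases with CDC42 exons, and CDC42 itself had no row of its own.

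ITPKB-IT1 (chr1:226656640-226675067, minus strand), in intron 2 of the inositol trisphosphate kinase gene ITPKB, gave no read in nucleoplasm. Against a floor of 3 reads over the group its chromatin level of 19.8, 27.6 and 23.1 normalized counts is at least 27.2-fold higher. It was the only tested member at 0 in nucleoplasm, and 8 others had 1 to 3 reads there. The median of the 46 log2 fold changes was the same, 3.58, with ITPKB-IT1 at its bound. These intervals and floors describe counting error and nothing else.

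Further members among the largest changes showed the same order of libraries. ACAP2-IT1, in the last intron of the Arf GTPase-activating protein gene ACAP2, had 86.2, 141 and 90.0 normalized counts in chromatin and 1.76, 6.03 and 3.38 in nucleoplasm (log2 fold change 4.56 ± 0.36). THRB-IT1, in intron 1 of the thyroid hormone receptor gene THRB, had 36.1, 40.8 and 32.9 against 3.51, 0 and 0 (4.50 ± 0.57). Its nucleoplasm reads all came from replicate 1. ANKRD44-IT1 had 45.4, 69.7 and 41.7 against 1.76, 2.58 and 0.84 (4.30 ± 0.33). In each of these 3 the lowest chromatin library was more than 10 normalized counts above the highest nucleoplasm library.

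At the other end stood the overlapping transcripts. Of the 4 -OT members tested, 1 was called, against 40 of 42 -IT members, and 3 of the 4 were among the 5 members with the smallest fold changes. No test was made of the difference between -OT and -IT. Of the 46 tested members 35 reached the minimum through chromatin alone. KBTBD11-OT1, ANXA2R-OT1 and SPANXA2-OT1 were instead above 10 in every nucleoplasm library, so these counts carry no weight as a contrast. KBTBD11-OT1 (chr8:1971397-1976478, plus strand), which begins before the kelch protein gene KBTBD11 and runs into it, had 17.5, 21.6 and 15.4 normalized counts in chromatin and 10.5, 12.1 and 11.0 in nucleoplasm. The groups did not overlap, but the log2 fold change was 0.64 ± 0.21 (adjusted p 0.0197) and turned to -0.59 under ERCC scaling. ANXA2R-OT1 (chr5:43013060-43067539, minus strand) spans the gene of the annexin A2 receptor and, without regard to length, had the highest normalized counts of the members in nucleoplasm. It had 525, 522 and 400 against 217, 201 and 179, a log2 fold change of 1.27 ± 0.12 (adjusted p 1.27e-05) that became -0.05 under ERCC scaling. SPANXA2-OT1, which extends over a cluster of near-identical SPANX genes so that the assignment of its reads is uncertain, had 48.9, 75.7 and 56.0 against 10.5, 22.4 and 11.0 (2.03 ± 0.30). It passed 4-fold narrowly, and the fold fell to 1.85, 1.85 and 1.87 on the log2 scale without chromatin replicate 2, nucleoplasm replicate 1 or nucleoplasm replicate 3. TGFB2-OT1, all of whose 1371 bases are annotated as TGFB2 exon, had 3 reads in each fraction.

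Among -IT members, AGAP1-IT1 and GRK5-IT1 did not pass 4-fold. AGAP1-IT1, in intron 1 of the Arf GTPase-activating protein gene AGAP1, had 32.6, 57.6 and 35.1 normalized counts in chromatin and 13.2, 13.8 and 15.2 in nucleoplasm (1.46 ± 0.24, adjusted p 3.83e-04). GRK5-IT1, 561 bases into intron 1 of the receptor kinase gene GRK5, had 15.1, 20.4 and 15.4 against 4.39, 5.17 and 1.69 (1.99 ± 0.36). ZNF346-IT1, in the gene of a zinc finger protein that binds double-stranded RNA, was among the members with the highest mean normalized counts, with 86.2, 127 and 115 against 23.7, 25.8 and 22.8 (2.12 ± 0.17).

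**Figure D1:**
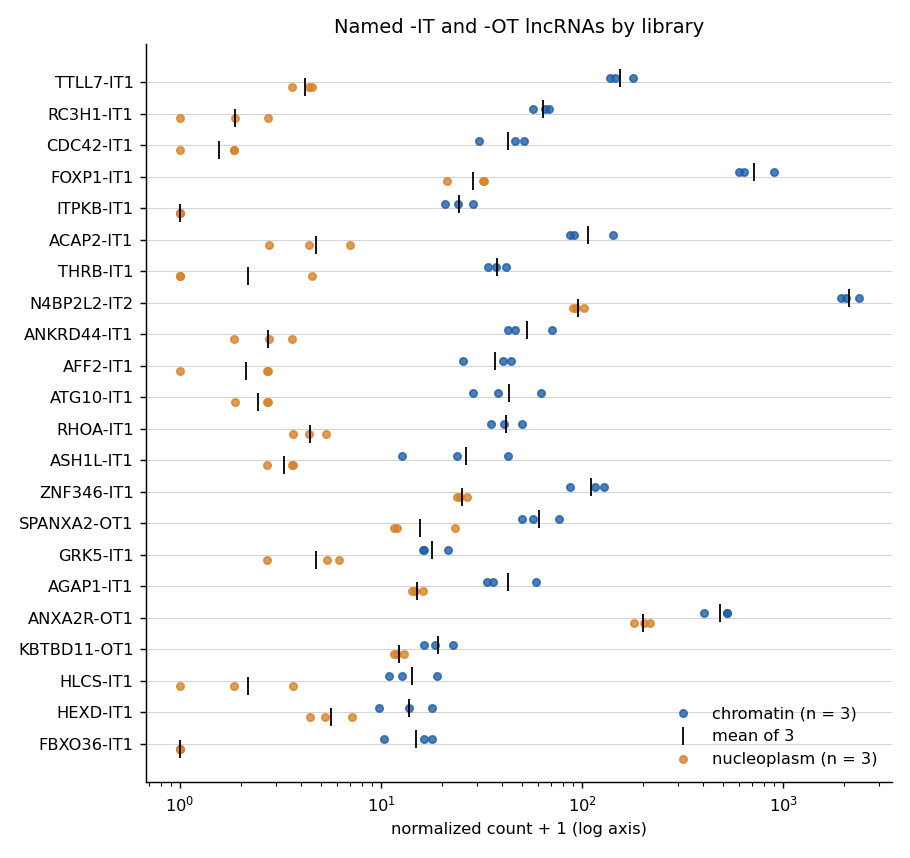
Normalized count + 1 (log axis) of members chosen by the size of their change, their level, the -OT suffix or their difference from the host in the 3 chromatin (blue) and 3 nucleoplasm (orange) libraries, with the mean of each group as a black bar, ordered by log2 fold change and with the untested members HLCS-IT1, HEXD-IT1 and FBXO36-IT1 at the bottom. Blue points lie to the right of orange points in every row drawn, by the widest distance for TTLL7-IT1 and the narrowest for KBTBD11-OT1 among the tested.

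The 32 members that could not be tested stayed at or below 19.2 normalized counts in any library. In 27 of them the chromatin libraries lay above the nucleoplasm libraries, and 30 had the higher mean in chromatin. The 46.2% given above is for genes of every level, and the share among genes as low as these is not given here. Those at 0 in nucleoplasm entered through chromatin alone, so that their order was set by the rule. HEXD-IT1 had the highest mean, with 12.8, 16.8 and 8.78 in chromatin and 6.14, 3.44 and 4.22 in nucleoplasm, followed by HLCS-IT1 with 11.6, 18.0 and 9.88 against 2.63, 0.86 and 0, and FBXO36-IT1 with 9.32, 16.8 and 15.4 against 0 in all 3. For FBXO36-IT1 the chromatin level is at least 16.1-fold higher. The 2 members with the higher mean in nucleoplasm were KCNH1-IT1, with 4.66, 6.0 and 7.68 in chromatin and 7.90, 10.3 and 4.22 in nucleoplasm, and CAMTA1-IT1, with 0, 1.20 and 3.29 against 4.39, 4.30 and 2.53. These names were picked after the values were seen. In both the fractions overlapped, and a difference was not detectable at this depth.

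Each member was then set against the host in its symbol, in the same libraries, so that the scaling of a library largely cancels. The difference was that between fractions in log2(member + 1) - log2(host + 1), fitted with limma over 3938 pairs of a gene inside a longer gene on its strand. In 43 pairs both genes passed the minimum. The member was more chromatin-bound than its host in 42 of the 43 (adjusted p under 0.05), against 82.9% of all such pairs, and the host in none, against 9.93%. No pair leaned to the host at an unadjusted p under 0.05. With a minimum of 10 on the mean of all 6 libraries the member led in 39 of 40 pairs, against 82.6%, but in 32 of the 40 the member's nucleoplasm mean was under 10. The median difference was 3.37 on the log2 scale, beside 3.08 over all pairs. The pairs hold the same members, selected mostly through chromatin, as the test above. In 42 pairs the 3 chromatin ratios lay above the 3 nucleoplasm ratios, for which an exact two-sided permutation test gives p = 0.1, the smallest that 3 against 3 libraries allow. The share of all 3938 pairs with such a separation is not given here, so this count is not shown to be particular to the members.

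The hosts themselves divided between the fractions. Over the 42 hosts of these pairs the median log2 fold change was -0.09, 17 were higher in chromatin and 19 higher in nucleoplasm at an adjusted p under 0.05, and 6 did not pass. None passed 4-fold in chromatin, and RHOA alone passed it in nucleoplasm. RHOA, the gene of a small GTPase, had 6884, 5813 and 7197 normalized counts in chromatin and 31664, 30703 and 32053 in nucleoplasm (-2.25 ± 0.08, adjusted p 2.46e-08). RHOA-IT1 (chr3:49365145-49367006, minus strand), in intron 3 of RHOA, went the other way, with 48.9, 39.6 and 34.0 against 2.63, 4.30 and 3.38 (3.24 ± 0.25). Its difference from the host, 5.49 ± 0.31 (adjusted p 3.52e-09), was the largest of the 43. The assembled rows used for RHOA and FOXP1 overlapped a readthrough gene better than the host itself.

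The next largest differences belonged to hosts near or below 0. TTLL7 was at 1103, 1229 and 1054 in chromatin and 1114, 1108 and 1042 in nucleoplasm, and TTLL7-IT1 differed from it by 5.16 ± 0.24. ACAP2-IT1 differed from ACAP2 by 5.14 ± 0.34. ATG10-IT1, in intron 2 of ATG10, the gene of a conjugating enzyme of autophagy, had 37.3, 61.2 and 27.4 in chromatin against 0.88, 1.72 and 1.69, and differed from its host by 4.97 ± 0.37. AFF2-IT1, in intron 1 of the X-linked gene AFF2, had 24.5, 43.2 and 39.5 against 0, 1.72 and 1.69, and differed by 4.89 ± 0.48. In these 4 pairs the host's log2 fold change was between -0.88 and 0.05.

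N4BP2L2 was the host with the largest log2 fold change in chromatin, 1.99 ± 0.07, just under 4-fold. Its mean was 10304 ± 960 normalized counts in chromatin (SD, n = 3) and 2585 ± 111 in nucleoplasm. The log2 fold change of N4BP2L2-IT2 still exceeded that of N4BP2L2 by 2.48 ± 0.11 (limma on the pair, adjusted p 3.28e-10). The log2 ratio of member to host was -2.30, -2.26 and -2.29 in the chromatin libraries and -4.70, -4.83 and -4.78 in nucleoplasm, the narrowest spread among the named pairs.

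The smallest difference was that of ANXA2R-OT1 and ANXA2R. The log2 ratios of member to host were 0.14, 0.31 and 0.00 in chromatin and 0.19, 0.43 and 0.33 in nucleoplasm, so that the groups overlapped, and the difference was -0.16 ± 0.13 (adjusted p 0.253). ANXA2R had 476, 420 and 400 in chromatin against 190, 149 and 143, and rose in chromatin by 1.43 ± 0.12. KBTBD11-OT1 (1.43 ± 0.29), AGAP1-IT1 (1.57 ± 0.28), ZNF346-IT1 (1.64 ± 0.20) and ASH1L-IT1 (1.69 ± 0.45) followed, each still called. ASH1L-IT1, in the gene of a histone methyltransferase, was uneven in chromatin, at 11.6, 22.8 and 41.7 normalized counts against 2.63, 2.58 and 1.69. Its log2 ratios to ASH1L of -9.15, -8.34 and -7.31 remained above the nucleoplasm ratios of -9.87, -9.82 and -10.17.

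**Figure D2:**
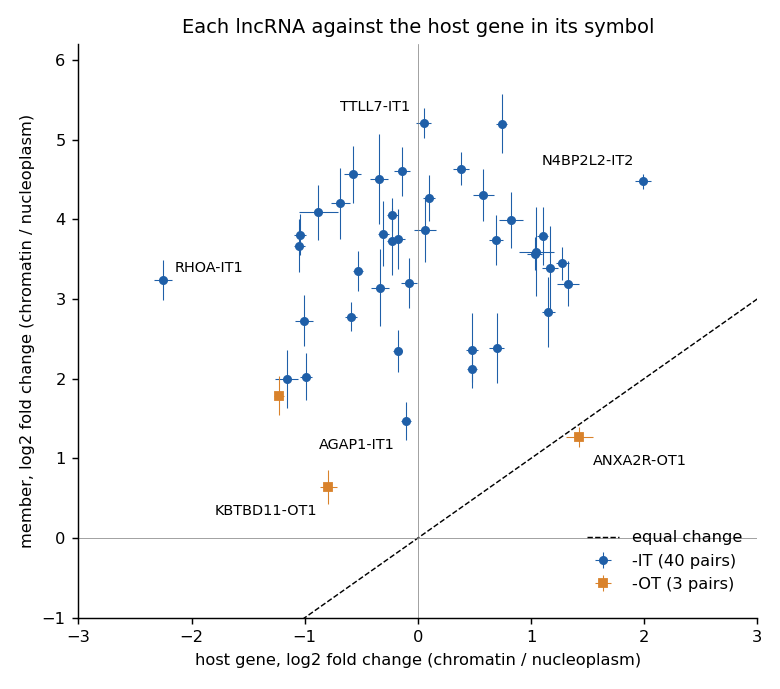
Log2 fold change between chromatin and nucleoplasm of each member (vertical axis) against that of its host (horizontal axis) for the 43 tested pairs, with bars for 1 SE, blue circles for -IT and orange squares for -OT, and a dashed line at equal change. All points but ANXA2R-OT1 lie above the line, and RHOA-IT1 stands apart on the left because of its host at -2.25.

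**Figure D3:**
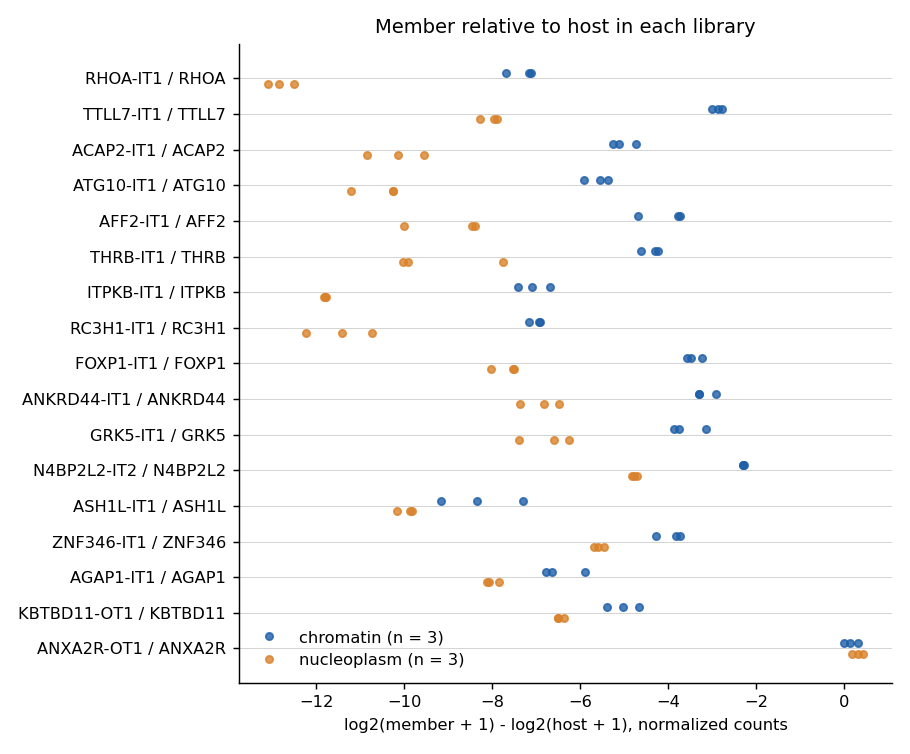
Log2 ratio of member to host, each as normalized count + 1, in the 3 chromatin (blue) and 3 nucleoplasm (orange) libraries for the named pairs, ordered by their difference. The colours are separate in every pair except ANXA2R-OT1 with ANXA2R at the bottom.

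The rankings by normalized count above take no account of length. Levels of members and hosts were compared per length, as mean normalized counts per kb of annotated exon. On this scale the level of a member had a median of 20.2% of its host's level in chromatin (range 3.0% to 192%) and of 1.53% in nucleoplasm (range 0 to 43.3%). In chromatin 3 members stood above their host per kb of exon, AFF2-IT1 at 192%, GRK5-IT1 at 139% and ANKRD44-IT1 at 134%, and in nucleoplasm none did. N4BP2L2-IT2 reached 433 normalized counts per kb in chromatin and N4BP2L2 reached 491, whereas in nucleoplasm the levels per kb were 19.2 and 123. FOXP1-IT1 came to 87.4% of the level of FOXP1 per kb in chromatin and to 4.43% in nucleoplasm. RHOA-IT1 was at 5.73% and 0.10% of RHOA. A host count covers its exons in this table's gene models, and reads in its introns outside an assembled locus were not analysed here. Exon length was the union over all isoforms, 32800 bases for FOXP1 and 21002 for N4BP2L2. Where this exceeds a single mRNA, the host's level per kb is understated. The assembled rows used for FOXP1 and N4BP2L2 matched the host spans at Jaccard indices of 0.78 and 0.77.

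**Figure D4:**
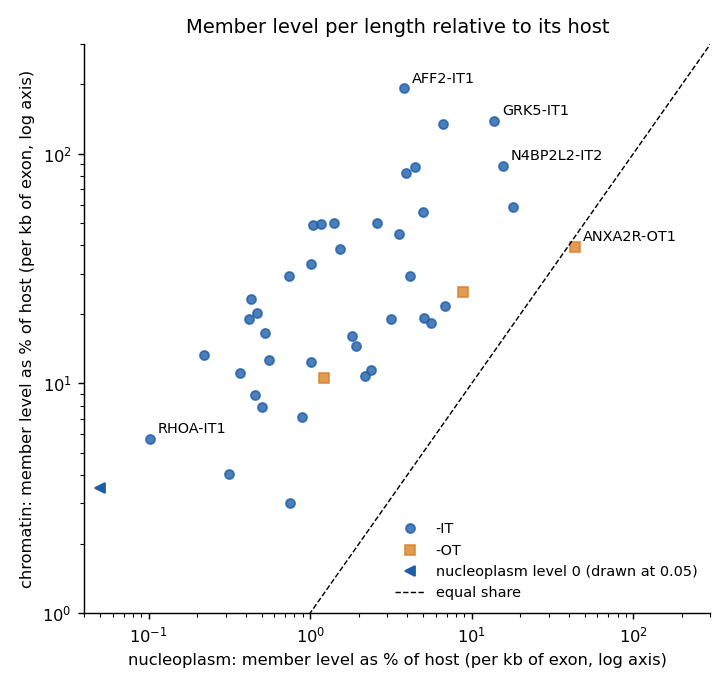
Level of each member as a percentage of its host's level, per kb of annotated exon, in chromatin (vertical, log axis) against nucleoplasm (horizontal, log axis) for the 43 pairs, with a dashed line at equal share. Points lie above the line except ANXA2R-OT1, which is at 39.1% in chromatin and 43.3% in nucleoplasm, and the triangle at the left edge is ITPKB-IT1, at 0 in nucleoplasm.

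Other loci of the same genes give the setting for these values. Antisense genes named for the same hosts (-AS) numbered 35 with a row, of which 12 were tested and 6 called in chromatin, with a median log2 fold change of 1.99. Of 4 divergent -DT genes tested 2 were called. Among other annotated lncRNA genes lying inside a gene on the same strand, 368 of 517 tested were called in chromatin and none in nucleoplasm, with a median of 2.77. Assembled loci with no annotated match in the introns of the same hosts were called in 35 of 38 cases, with a median of 4.61, and the members' median of 3.58 lay between those of these lists. In 10 hosts a member and such unannotated loci were both tested. The log2 fold change of the member was above the median of the host's unannotated loci in 3 of the 10, TTLL7-IT1, RPS6KA2-IT1 and ZNF346-IT1, and below it in 7. FOXP1-IT1 at 4.64 was below all 5 unannotated loci in FOXP1, which ran from 4.72 to 5.26. SMYD3-IT1 at 3.99 was below all 6 in SMYD3, which ran from 4.91 to 5.51. SMYD3-IT1 had 29.8 normalized counts per kb of span in chromatin, beside a median of 169 for those loci. The count of 1 added before taking logs caps the fold change of a low locus. For a member as low as SMYD3-IT1, a place below its host's loci can thus be set by its level alone. Per kb of span the member's chromatin level exceeded the median of its host's unannotated loci in FOXP1 alone. An assembled locus has to be well covered to be found, so its level is no independent measure.

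**Figure D5:**
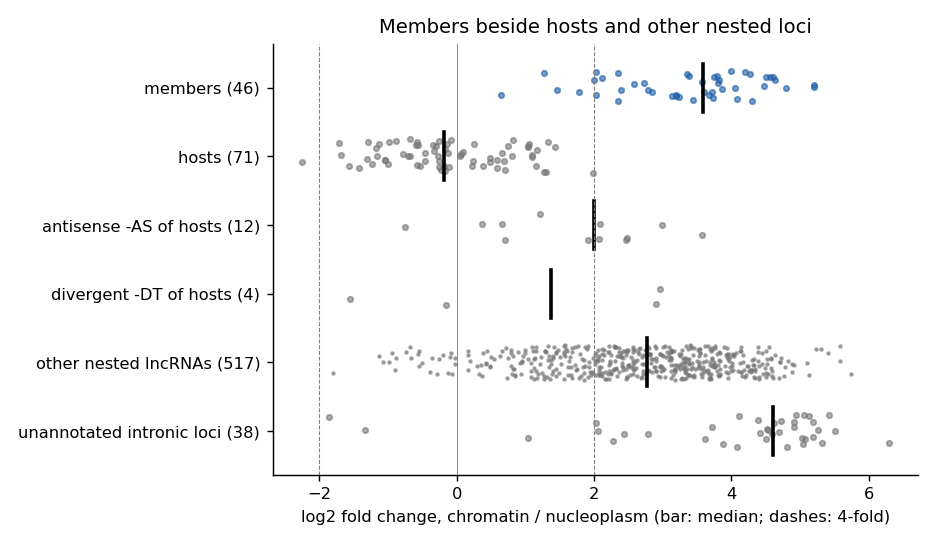
Log2 fold change between chromatin and nucleoplasm of every tested gene or locus in each list (points, with small vertical jitter), with the median as a black bar and 4-fold changes as dashed lines. Members centre on 3.58, their hosts on -0.18 for all 71 tested, other nested lncRNAs on 2.77 and unannotated loci in the hosts' introns on 4.61.

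Within the members, features that the rule did not use varied with the fold change as follows, as a description of the 46 tested. The 13 with a polyadenylation signal in the last 40 bases had a median log2 fold change of 2.39, with 10 called, and the 33 without had a median of 3.67, with 31 called. The 6 with TATAAA anywhere in the start window, before or past the start, ran from 3.79 to 5.20. Their median was 4.38, beside 3.37 for the 40 without. The 4 with a CG-rich start ran from 2.03 to 3.45. Members in intron 1 (14) and in later introns (24) had medians of 3.52 and 3.73, and single-exon and several-exon members 3.38 and 3.60. The subsets overlap each other, and no test was made between them.

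The 2 long-read chromatin libraries give levels in TPM per transcript, here summed per gene, with no nucleoplasm library beside them and a depth that the file does not give. Strand is lost in this cDNA protocol, so that the strand of an assembled long-read transcript is not a measurement. Of the 78 members 31 were above 0 in replicate 1, 30 in replicate 2, 18 in both and 35 in neither. ANXA2R-OT1 was the highest, at 19.9 and 9.52 TPM, above its host ANXA2R at 11.4 and 4.75. Transcripts assembled on the opposite strand inside its span held 14.8 and 6.30 TPM. With strand lost, their reads cannot be told from those of ANXA2R-OT1. KIRREL1-IT1 was at 10.1 and 1.41, and FAR1-IT1 at 8.74 and 0. The replicates of each of these 3 differed by more than 2-fold. FOXP1-IT1 was at 5.21 and 3.29 and FOXP1 at 53.3 and 49.7. N4BP2L2-IT2, the member with the highest mean normalized count in the short reads, was at 2.49 and 0.62, and TTLL7-IT1 at 1.11 and 0.

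The host with the highest long-read value was ATG10, at 818 and 936 TPM, while ATG10-IT1 was at 0 in both replicates. Most of the ATG10 value came from a single assembled transcript of 799 and 918 TPM that runs 1537 bases past the annotated end of ATG10, into RPS23, the ribosomal protein gene on the other strand. With strand lost, reads of ATG10 and RPS23 cannot be told apart there. RHOA came next, at 151 and 166 TPM, and RHOA-IT1 was at 0 and 3.05.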

How the data were processed

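HAP1 nuclear RNA was measured by short reads in 3 chromatin and 3 nucleoplasm libraries and by nanopore long reads in 2 chromatin libraries. Per the labels, the authors aligned short reads to hg38 with HISAT2 2.1.0 and long reads with minimap2, and assembled both with StringTie. The deposited short-read signal is the gene count divided by a DESeq2 size factor, called normalized count here. The deposited long-read TPM is per transcript. In every library 100% of the short-read values were whole multiples of 1 read within 0.01, and the recovered reads served for edgeR 4.0.16 and DESeq2 1.42.0 as alternatives. Shallower chromatin libraries make a low chromatin level less precise than a nucleoplasm one.

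Genes spanning more than 200 bases that reached 10 normalized counts in 3 or more libraries were tested with limma 3.58.1 (trend) in R 4.3.3 on log2(normalized count + 1), chromatin minus nucleoplasm, without replicate blocks, and fold changes understate low genes on this scale. Pairs were tested the same way on the difference of log2 values. Named were the 10 largest and 5 smallest fold changes, the 5 highest means, every -OT member, the 5 largest and 5 smallest pair differences, the highest long-read member and host, and the 3 highest untested members. The values of 2 members that this rule names are not reported here. Members, lists, rule and tests were chosen with earlier results of these data known. The gene test was also run on simulated data with 200 changed genes, none of them among the lowest. The outcome of that run is not given here. GENCODE release 44 on hg38 gave names, positions and exons, and 0 columns of the tables were left unmapped.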

Additional observations from a re-analysis of the deposited data

How the results depend on the processing

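The count of 41 members called in chromatin lay between 29 and 60 in all alternatives that kept the full list, and it was 7 of 8 among members whose mean reached 50 and 2 of 2 with ENSG identifiers alone. It was 42 with edgeR, DESeq2, TMM factors or a pseudocount of 0.5, 43 with equal gene totals, 45 with a 2-fold minimum, 29 of 46 with a pseudocount of 5 and 60 of 78 with no filter. Including the rows that also hold another gene gave 41 of 50, and -IT members alone 40 of 42, the first of these chosen after seeing the data, as was the mean of at least 10. No alternative called a member in nucleoplasm. The shares of all genes or pairs called under the settings of this paragraph are not given here. The counts therefore show only how the list's own result moved. The median log2 fold change of 3.58 became 3.92 with edgeR, 3.98 with DESeq2, 3.90 and 2.40 with pseudocounts of 0.5 and 5, 3.13 with no filter, 3.96 with a mean of at least 50, 3.94 with equal gene totals, 2.53 with equal ERCC totals and 3.16 with ENSG identifiers alone. A larger pseudocount shrinks low values by construction, and the other causes were not tested. ERCC scaling turned ANXA2R-OT1 to -0.052 and KBTBD11-OT1 to -0.59. For pairs, 42 of 43 called became 69 of 76 with no filter, 7 of 8 with a mean of at least 50 and 1 of 1 with ENSG identifiers alone. With no filter 1 pair was called with the host more chromatin-bound (CAMTA1-IT1, -1.38, adjusted p 0.0432 in limma). The median difference of 3.37 became 3.77 and 2.49 with pseudocounts of 0.5 and 5, 3.03 with no filter, 2.33 with a mean of at least 50, 3.72 with ENSG identifiers alone and 3.60 for -IT members alone. Leaving out each library in turn gave 38 to 42 members called, medians of 3.43 to 3.63, 42 pairs called each time and median differences of 3.29 to 3.47. Without 1 library an arm has 2 samples, and limma pools the spread.

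The replicate numbers are shared between fractions. Per the study's methods the libraries of both fractions came from 3 cultures, so that a culture can link the fractions. Neither the methods nor the labels say that a number marks a shared culture, so the numbers were not taken as pairs. Deviations of same-numbered libraries correlated at only 0.09, 0.05 and 0.06, although each library correlated best with its own number. The fit with a replicate block called 41 members in chromatin and 0 in nucleoplasm, 42 and 0 pairs, with the medians of 3.58 and 3.37.

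Of the 78 members 9 were at 0 in all nucleoplasm libraries, and 32 were too low to test.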
